A study of Mus musculus with 9 samples.

Results

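The genes described here are 8 genes of the endocrine pancreas, Ins1, Ins2, Iapp, Ppy, G6pc2, Slc30a8, Nkx6-1 and Abcc8, out of 55468 genes measured in the intestinal tract of mice. They were picked by name, with earlier results of these data known, from a group whose levels differed between libraries, and their rows were read in all 9 libraries. Their levels are therefore a description and carry no test. The study examined diets without methionine, without tryptophan and niacin, or without all of these in mice given dextran sulfate sodium (DSS) to drink. DSS damages the lining of the gut and serves as a model of inflammatory bowel disease.

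The 9 conditions have 1 library each. Libraries 3KR, 2KR, 1KR and RR were collected at day 33: 3KR after a diet lacking methionine, tryptophan and niacin until day 28 and normal diet afterwards, 2KR after the same schedule with a diet lacking tryptophan and niacin, 1KR with a diet lacking methionine, and RR after normal diet throughout. Libraries 3K, 2K, 1K and R were collected at day 28, on those 3 deficient diets and on normal diet. All 8 of these had DSS in the drinking water from day 18. Library C came from control mice on normal feed, for which no DSS is named, and was collected at day 34. The sources used here do not give the strain, sex or age, the gut segment taken or the number of animals in a library.

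Islets of Langerhans are clusters of hormone cells scattered among the enzyme-making acinar cells of the pancreas. Beta cells make insulin, which mice encode in a pair of genes, Ins1 and Ins2, and co-secrete the peptide amylin, encoded by Iapp. PP cells make pancreatic polypeptide, encoded by Ppy, and are most frequent in the part of the pancreas that lies in the bend of the duodenum. The gut has endocrine cells of its own, which share many transcription factors and secretory proteins with the islet but are not known as a source of insulin.

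Ins1 and Ins2 resemble each other closely, and the start of both coding sequences is shown because it bears on how their reads can be told apart. The first 120 coding bases lie within 1 exon in each gene, at chr19:52264624-52264743 on the plus strand for Ins1 and at chr7:142679414-142679533 on the minus strand for Ins2 (GRCm38, GENCODE M21). Capitals mark the 14 positions that differ.
Ins1: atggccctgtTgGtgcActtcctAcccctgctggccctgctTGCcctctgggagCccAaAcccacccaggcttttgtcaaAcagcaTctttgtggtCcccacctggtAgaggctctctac
Ins2: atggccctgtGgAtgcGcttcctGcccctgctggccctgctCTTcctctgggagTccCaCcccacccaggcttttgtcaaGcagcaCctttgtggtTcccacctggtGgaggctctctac
Over the whole coding sequence, of 324 bases in Ins1 and 330 in Ins2, 300 of 324 aligned bases were identical (92.6%), and the longest identical run was 54 bases. Reads that fall in such a run could be assigned to either gene. The split between Ins1 and Ins2 is therefore uncertain, and their sum less so.

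The region around the RefSeq start sites is shown for 4 of the genes that were high in the same libraries, from 250 bases before the start to 50 after it (GRCm38.p6). Such a window was matched for 5 of the 8 genes. Capitals mark CATCTG, the E box letters that insulin promoters are known for, and TAAT, the core letters of homeodomain factors such as PDX1 and NKX6-1, each on either strand.
Ins1, chr19:52264047-52264346, plus strand: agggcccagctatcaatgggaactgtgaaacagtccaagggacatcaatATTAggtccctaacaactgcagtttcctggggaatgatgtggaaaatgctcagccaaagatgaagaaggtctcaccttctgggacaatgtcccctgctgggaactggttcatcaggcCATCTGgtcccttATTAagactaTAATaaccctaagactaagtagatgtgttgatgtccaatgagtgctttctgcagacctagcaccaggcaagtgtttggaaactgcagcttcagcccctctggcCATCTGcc
Iapp, chr6:142298175-142298474, plus strand: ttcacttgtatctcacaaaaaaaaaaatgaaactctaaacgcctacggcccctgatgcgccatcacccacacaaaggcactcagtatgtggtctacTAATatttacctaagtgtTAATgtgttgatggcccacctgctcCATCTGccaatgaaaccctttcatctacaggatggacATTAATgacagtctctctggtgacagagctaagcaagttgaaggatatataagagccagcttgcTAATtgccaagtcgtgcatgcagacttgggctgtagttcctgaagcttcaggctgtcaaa
G6pc2, chr2:69219699-69219998, plus strand: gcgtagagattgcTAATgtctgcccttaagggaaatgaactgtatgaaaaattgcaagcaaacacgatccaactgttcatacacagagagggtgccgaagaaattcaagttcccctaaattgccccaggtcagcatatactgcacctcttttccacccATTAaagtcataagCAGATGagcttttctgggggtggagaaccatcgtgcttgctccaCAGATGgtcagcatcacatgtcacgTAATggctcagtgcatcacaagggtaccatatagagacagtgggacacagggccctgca
Ppy, chr11:102101270-102101569, minus strand: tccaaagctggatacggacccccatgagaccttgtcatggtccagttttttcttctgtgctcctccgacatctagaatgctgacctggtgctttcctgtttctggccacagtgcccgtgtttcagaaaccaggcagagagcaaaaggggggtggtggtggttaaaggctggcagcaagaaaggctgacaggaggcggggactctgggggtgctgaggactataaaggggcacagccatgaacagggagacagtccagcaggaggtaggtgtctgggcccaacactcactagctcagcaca
CATCTG was found in 3 of the 5 genes, with 2 matches at Ins1, 1 of them after the start site, 1 at Iapp and 2 at G6pc2. It was found in 17.2% of 32851 promoter windows of the same length. A gene counts if any of its windows matched, while the shares are per window, so the 2 are not strictly alike. TAAT was found in the same 3 genes, and in 58.0% of all windows. The 2 motifs did not overlap in the windows shown, and overlapping matches of TAAT on both strands, as at Iapp, were counted apart. Neither motif was in the windows of Ppy and Nkx6-1, which says only that these letters are absent there. G6pc2 has another annotated start upstream of the one shown, with a window from 69210823, at which TAAT occurred and CATCTG did not.

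The insulin genes were high in 3K and 2K and at or near 0 elsewhere. Levels are given in FPKM, the fragments for each kilobase of a transcript relative to the size of that library as scaled by the authors. This allows genes to be compared per length. Ins2 (ENSMUSG00000000215, chromosome 7, 142678656 to 142743381) had 322 FPKM in 3K and 342 FPKM in 2K. It had 0.117 FPKM in R and was listed at 0 in 3KR, 2KR, 1KR, RR, 1K and C. That placed Ins2 at rank 183 of 29718 genes above 0 in 3K and at rank 225 of 29542 in 2K. In bulk tissue, more cells of a type and more RNA per cell cannot be told apart.

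Ins1 (ENSMUSG00000035804, chromosome 19, 52264297 to 52265476) had 54.2 FPKM in 3K and 59.8 FPKM in 2K. It was listed at 0 in 3KR, 2KR, 1KR, RR, 1K and R and had 0.040 FPKM in C, where 1 fragment is worth an estimated 0.0401 FPKM. The same estimate gives 1361 fragments of Ins1 in 3K and 1374 in 2K, so counting error is small in those libraries. The insulin genes together made up 84.6% of the summed FPKM of the 8 genes in 3K and 86.6% in 2K.

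The other peptide genes followed the insulin genes but had a low level in some further libraries. Iapp (ENSMUSG00000041681, chromosome 6, 142298423 to 142303961) had 25.6 FPKM in 3K and 26.7 FPKM in 2K. Its level was between 0.649 FPKM (C) and 1.66 FPKM (1KR) in the remaining 7 libraries, with a median of 0.893. Iapp was thus above 0 in all 9 libraries, and 3K was 15.5 times the highest of the other 7.

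Ppy (ENSMUSG00000017316, chromosome 11, 102099930 to 102101319) had 40.1 FPKM in 3K and 29.1 FPKM in 2K. Next came 3KR with 2.69 FPKM and C with 1.21 FPKM, then 1K with 0.432, 2KR with 0.306 and R with 0.222 FPKM, and Ppy was listed at 0 in 1KR and RR. The level in 2K was 10.8 times that in 3KR. In 3KR, Insl5, a hormone of distal gut endocrine cells, was at 8.78 FPKM and Pyy, a relative of Ppy made by gut L cells, at 55.7 FPKM, the highest of the 9 libraries for both. Of the acinar genes described below, 15 had at least 1 FPKM in 3KR or RR. In 3KR, 7 of these were at least 2-fold higher than in RR and 3 at least 2-fold lower. Over all genes the shares were 11.4% higher and 9.73% lower. The part of gut or pancreatic cells in the Ppy level of 3KR was not tested.

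**Figure D1:**
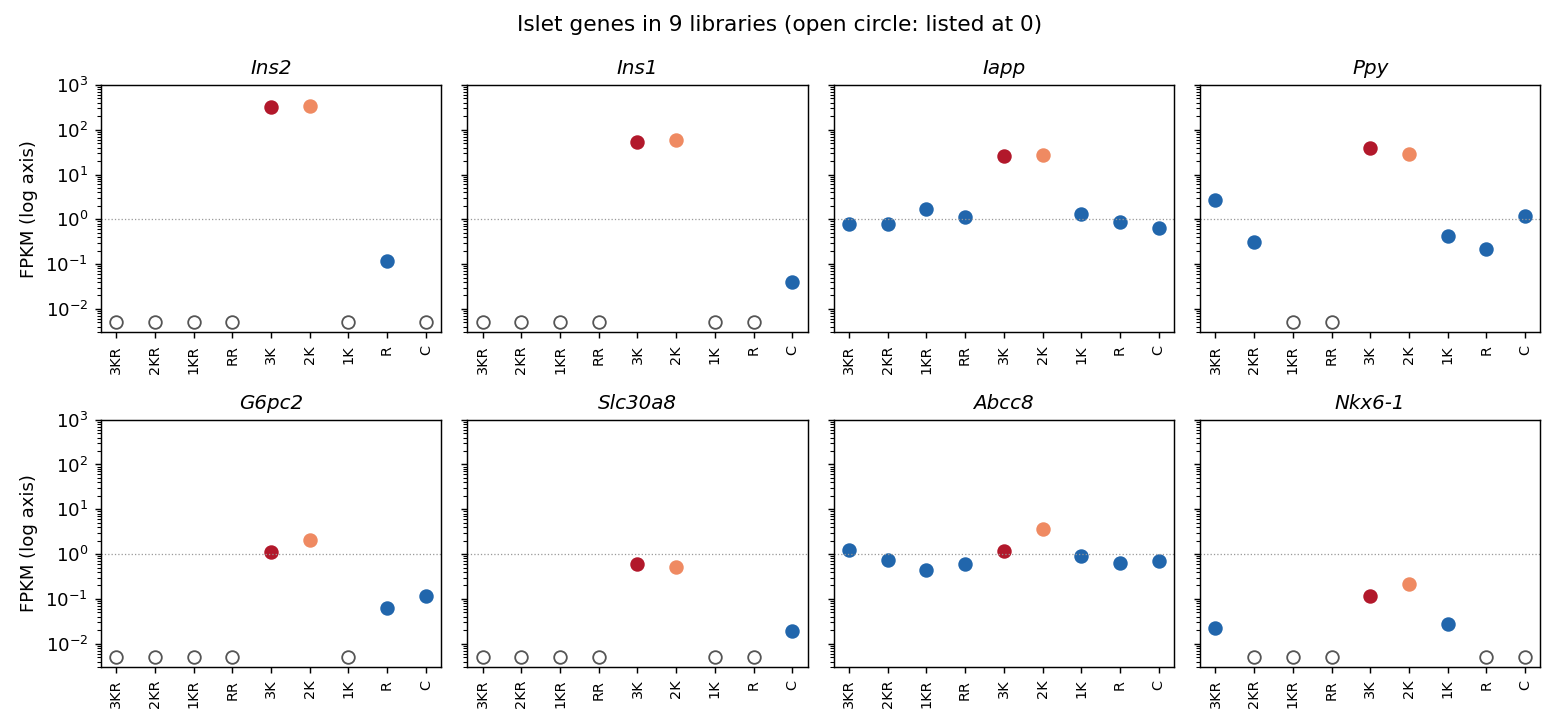
Level of each of the 8 islet genes in every library, in FPKM on a log axis, with 3K in red, 2K in orange and the other 7 libraries in blue; open circles stand for genes listed at 0 and the dotted line is 1 FPKM. In 7 of 8 genes both 3K and 2K lie above the other libraries, and Abcc8, at 1.15 FPKM in 3K and 1.26 FPKM in 3KR, is the exception. Over all 38487 genes above 0 in any library, 12.4% have both above the others, and the 8 genes were chosen with such levels in view.

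The beta cell genes that act in glucose sensing, granule loading and cell identity were much lower than the hormones. G6pc2 (ENSMUSG00000005232, chromosome 2, 69211073 to 69227841), a glucose-6-phosphatase subunit of islets, had 1.10 FPKM in 3K and 2.05 FPKM in 2K. It had 0.061 FPKM in R and 0.113 FPKM in C and was listed at 0 in 3KR, 2KR, 1KR, RR and 1K. The 2 libraries did not overlap with the other 7.

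Slc30a8 (ENSMUSG00000022315, chromosome 15, 52295553 to 52335798), the zinc transporter of insulin granules, had 0.600 FPKM in 3K and 0.508 FPKM in 2K. It had 0.019 FPKM in C and was listed at 0 in the other 6. These levels correspond to an estimated 30.9 fragments in 3K, 23.3 in 2K and about 1 (0.972) in C. The order is clear of the other libraries, but both levels lie under 1 FPKM and rest on few fragments.

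Nkx6-1 (ENSMUSG00000035187, chromosome 5, 101658139 to 101664996), a homeodomain factor that maintains beta cell identity, had 0.117 FPKM in 3K and 0.213 FPKM in 2K. It had 0.022 FPKM in 3KR and 0.028 FPKM in 1K and was listed at 0 in 2KR, 1KR, RR, R and C. The estimate is 10 fragments in 3K, 16 in 2K, 1.01 in 3KR and 2.00 in 1K. Which of 3K and 2K is higher cannot be settled at this depth.

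Abcc8 (ENSMUSG00000040136, chromosome 7, 46104523 to 46180033), the sulfonylurea receptor subunit of the channel that couples glucose to insulin release, did not follow the others in 3K. It had 1.15 FPKM in 3K and 3.70 FPKM in 2K, and between 0.444 FPKM (1KR) and 1.26 FPKM (3KR) in the other 7, with a median of 0.716. Its level in 3K lay inside that range and its level in 2K above it. Neurons and some gut endocrine cells are known to express Abcc8 as well.

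Each diet library was compared with the normal-diet library of its day as a difference of log2(FPKM + 0.5), among genes that reached 1 FPKM in at least 1 of the 2 libraries. With 1 library per condition there is no spread between replicates, and a call means only a difference of at least 2-fold between 2 libraries. The added 0.5 understates the change of low genes. In 3K against R, 6 of the 8 genes reached the floor of 1 FPKM, and Slc30a8 and Nkx6-1 did not. Of the 6, Ins1, Ins2, Iapp, Ppy and G6pc2 were called higher and 0 lower, beside 11.6% of all 18873 genes called higher. In 2K against R, the same 6 reached the floor and all 6 were called higher, beside 14.7% of 19035 genes. These contrasts were in view when the genes were chosen, so nothing is read from their counts.

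On that scale Ins2 differed by 9.03 in 3K and 9.12 in 2K, Iapp by 4.23 and 4.29, and Ppy by 5.81 and 5.36, each against R. The comparisons share R. The medians over all genes were 0.00 in 3K against R and 0.02 in 2K against R. Rescaling each library to the same summed FPKM moved those medians to -0.14 and -0.33, and the share of higher among called genes from 46.3% to 37.2% in 3K and from 51.0% to 32.5% in 2K. The counts of the 8 genes called higher stayed at 5 in 3K and 6 in 2K.

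On the diet lacking methionine alone, insulin transcripts were listed at 0. In 1K against R, Iapp was the only one of the 8 to reach the floor, at 1.29 FPKM in 1K and 0.893 FPKM in R, and 0 were called in either direction, beside 7.17% of genes called higher and 8.63% lower. In R against C, Ppy was the only one to reach the floor and was called lower, at 0.222 FPKM in R and 1.21 FPKM in C (4.43% of genes were called higher and 3.22% lower). In RR against C, Ppy was again called lower, listed at 0 in RR, and Iapp was not called (6.71% of genes were higher and 5.81% lower). In RR against R, Iapp alone reached the floor, at 1.11 FPKM in RR and 0.893 FPKM in R, and 0 were called (5.42% of genes higher, 5.29% lower). Against C, the counts called higher were 5 in 3K, beside 13.0% of genes, and 6 in 2K, beside 15.6%.

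In the refed libraries insulin transcripts were listed at 0. In 3KR against 3K, 5 of 6 genes at the floor were called lower, beside 11.7% of all genes, and in 2KR against 2K all 6 were, beside 19.0%. Ins1, Ins2, G6pc2 and Slc30a8 were listed at 0 in both 3KR and 2KR. Iapp had 0.802 FPKM in 3KR, against 25.6 FPKM in 3K, and 0.777 FPKM in 2KR, against 26.7 FPKM in 2K. Abcc8 had 1.26 FPKM in 3KR and 1.15 FPKM in 3K, and was the gene not called between those libraries.

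Set against RR, 3KR had 1 of 3 genes at the floor called higher, which was Ppy (11.4% of all genes), and 0 lower (9.73%). In 2KR against RR, Iapp alone reached the floor and was not called, beside 2.67% of genes called higher and 3.67% lower. The same held in 1KR against RR, beside 2.47% higher and 3.51% lower, and in 1KR against 1K, with Iapp at 1.66 FPKM in 1KR and 1.29 FPKM in 1K, beside 6.57% higher and 7.79% lower. The estimated depth was 15.7 M fragments in 3KR and between 24.3 M (1K) and 34.2 M (2KR) in the others, so that 1 fragment of Ins1 is worth 0.0739 FPKM in 3KR and at most 0.0477 FPKM in the rest. Insulin transcripts under those values would not have been detectable.

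Ins1 and Iapp stood in nearly the same proportion to Ins2 in 3K and in 2K. Within a library, a ratio to Ins2 does not depend on how the library was scaled. Ins1 was at 16.9% of the Ins2 level in 3K and 17.5% in 2K, and Iapp at 7.97% in 3K and 7.80% in 2K. Ppy was at 12.5% in 3K and 8.51% in 2K, a ratio 1.46 times as high in 3K. Abcc8 was at 0.356% in 3K and 1.08% in 2K. Of the 6 genes at the floor, only Abcc8 was at least 2-fold apart between 3K and 2K (log2 difference -1.35), beside 9.42% of all genes called lower in 3K and 5.99% higher.

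**Figure D2:**
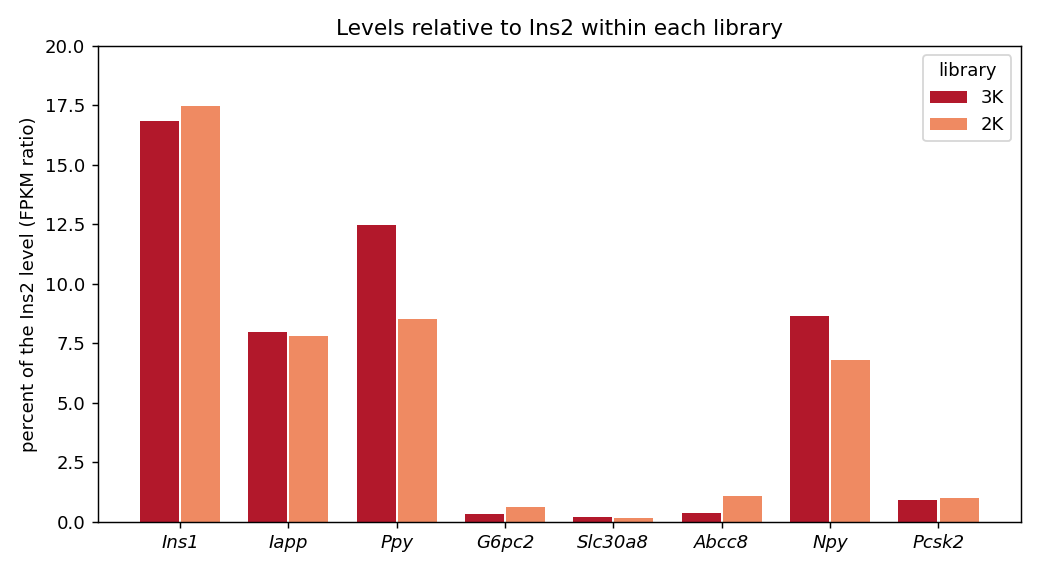
Level of 6 islet genes and of Npy and Pcsk2 as a percent of the Ins2 level in the same library, with 3K in red left of 2K in orange; 1 library stands behind each bar. Ins1 and Iapp are close in both libraries, at 16.9% and 7.97% in 3K against 17.5% and 7.80% in 2K, while Ppy is higher in 3K and Abcc8 higher in 2K.

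Transcripts of the exocrine pancreas moved with the islet genes. The acinar list, 31 digestive enzymes and acinar factors, summed to 63872 FPKM in 3K and 55600 FPKM in 2K, and to between 79.6 FPKM (1K) and 246 FPKM (2KR) in the other 7 libraries. In 3K and in 2K 30 of its 31 genes had at least 1 FPKM, and between 9 (1K) and 16 (1KR) elsewhere. Ctrc, Cuzd1 and Ptf1a, genes of acinar secretion and identity, were at 0 in R and 1K. In all, 8 of the 31 genes were at 0 in R and 13 in 1K. Most of the acinar sum of 205 FPKM in R came from Clps (72.5 FPKM), Klk1 (60.5 FPKM) and Pnliprp2 (50.5 FPKM). The 8 islet genes summed to 445 FPKM in 3K and 464 FPKM in 2K, and to between 1.72 FPKM (RR) and 4.78 FPKM (3KR) elsewhere. As a percent of the acinar sum that was 0.696% in 3K and 0.834% in 2K. The part of attached pancreatic tissue in the islet levels was not tested.

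The libraries differ in other organs. The liver list summed to 518 FPKM in 3K and 30322 FPKM in 2K, against 413 FPKM in R, and the stomach list to 82.9 FPKM in 3K and 18478 FPKM in 2K, against 12.8 FPKM in R. Of the defining stomach genes, Tff1 and Gkn2 were listed at 0 in 3K, and Ghrl, which gut cells also make, was 24.6 of the 82.9 FPKM and Tff2 57.1. The islet hormone levels of 3K thus stood beside stomach and liver sums far below those of 2K. Hnf4a was at 89.0 FPKM in 3K, 167 FPKM in 2K and 229 FPKM in R. This gut factor is also on the list of islet transcription factors described below, where it was called lower in 3K. Its level is therefore not a measure of gut content alone.

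**Figure D3:**
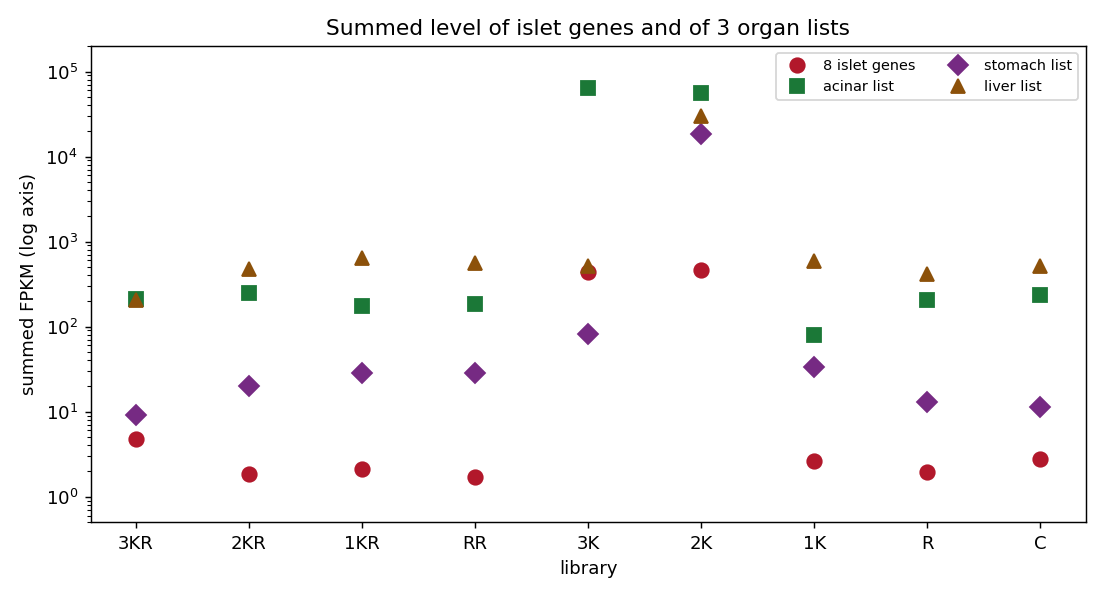
Summed FPKM on a log axis of the 8 islet genes (circles), the acinar list (squares), the stomach list (diamonds) and the liver list (triangles) in each library. Islet and acinar sums are high in both 3K and 2K, at 445 and 63872 FPKM in 3K and 464 and 55600 FPKM in 2K, while stomach and liver sums are high in 2K.

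The other hormones and peptides of the islet, most of which gut cells also make, were higher in part. Of 7 such genes, 3K had 2 higher and 1 lower than R by 2-fold or more (median log2 difference 0.77), and 2K had 4 higher and 1 lower (median 1.06). Under every other scaling tried, 1 of them and not 2 was higher in 3K. Npy, neuropeptide Y, was highest in the same libraries as insulin, at 27.8 FPKM in 3K and 23.2 FPKM in 2K, against 2.35 FPKM in R. The summed markers of enteric neurons and glia, described below, were also highest in 3K and 2K. The part of neurons in the Npy level was not tested. Ghrl, ghrelin, was at 24.6 FPKM in 3K and 535 FPKM in 2K, against 12.01 FPKM in R, and it is chiefly a stomach hormone. Sst, somatostatin, was at 39.7 FPKM in 3K and 103 FPKM in 2K, against 24.97 FPKM in R, but was also at 76.0 FPKM in 1K.

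Gcg, the glucagon gene of islet alpha cells and gut L cells, was not called, at 63.1 FPKM in 3K and 51.1 FPKM in 2K, against 36.7 FPKM in R and 51.4 FPKM in C. Ucn3, a peptide of mature beta cells that was singled out after its values were seen, went the other way, at 0.188 FPKM in 3K and 0.153 FPKM in 2K, against 1.49 FPKM in R. It was also low, at 0.10 FPKM, in 3KR.

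The transcription factors of the islet were called in both directions in 3K and as higher in 2K. Of 21 listed, 12 reached the floor in 3K against R, with 3 called higher and 3 called lower (median -0.03), and 11 in 2K against R, with 5 higher and 0 lower (median 0.47). With summed FPKM made equal, 5 were lower in 3K and 2 in 2K. Under that scaling, 3623 of all 20848 genes tested were lower in 3K and 4731 of 20781 in 2K. Pdx1, which specifies the pancreas and acts in beta cells and the duodenum, was at 4.15 FPKM in 3K and 22.0 FPKM in 2K, against 0.145 FPKM in R. It was higher in 2K than in 3K, as was Onecut2, a factor on the duodenal list, at 2.27 FPKM in 3K and 13.1 FPKM in 2K, against 0.099 FPKM in R. Onecut2 was above its 3K level in 1KR (7.44 FPKM), RR (5.59 FPKM), 2KR (2.94 FPKM) and 1K (2.78 FPKM) as well. Mafa, an activator of the insulin genes, stayed under 1 FPKM, at 0.256 FPKM in 3K, 0.123 FPKM in 2K and 0.037 FPKM in R, and was at 0.252 FPKM in 3KR.

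Genes of hormone granules and prohormone processing were higher in part. All 22 on the list reached the floor, with 8 at least 2-fold higher in 3K than in R and 5 in 2K, and 0 lower in either (medians 0.76 and 0.44). With summed FPKM made equal, 2 were lower in each, beside 3623 of all 20848 genes in 3K and 4731 of 20781 in 2K. Pcsk2, the convertase that cuts proinsulin and proglucagon and a gene named after its values were seen, was at 2.96 FPKM in 3K and 3.39 FPKM in 2K, against 0.263 FPKM in R. Its partner Pcsk1, which beta cells and gut endocrine cells both use, was not called. Pcsk1 was at 3.54 FPKM in 3K and 2.70 FPKM in 2K, against 4.88 FPKM in R. Markers of enteric neurons and glia, which share granule genes with endocrine cells, had 8 of 11 called higher in 3K (median 1.31), beside 11.6% of all genes, and 3 of 9 in 2K (median 0.89), beside 14.7%. Snap25, which is on both this list and the granule list, was called higher in 3K. In 2K, 4 of all 13 markers lay below R. Their sum was 84.7 FPKM in 3K and 48.3 FPKM in 2K, against 23.7 FPKM in R, and Elavl4 and Sox10 were above 0 in all. Their part in the granule list was not tested.

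Genes that sense glucose or incretins and drive secretion gave 4 of 11 called higher and 1 called lower in 3K (median 0.87), and 6 of 13 called higher and 1 called lower in 2K (median 0.88). Glp1r, the GLP-1 receptor of beta cells, was at 4.17 FPKM in 3K and 7.76 FPKM in 2K, against 0.291 FPKM in R. Gcgr, the glucagon receptor, which is most abundant in liver, was at 0.450 FPKM in 3K and 9.55 FPKM in 2K, against 0.126 FPKM in R. Prlr, the prolactin receptor, was the lower gene in both, at 20.6 FPKM in 3K and 22.4 FPKM in 2K, against 54.0 FPKM in R. Across these 4 lists, the shares over all genes are the same 11.6% higher and 13.4% lower in 3K, and 14.7% higher and 14.1% lower in 2K.

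**Figure D4:**
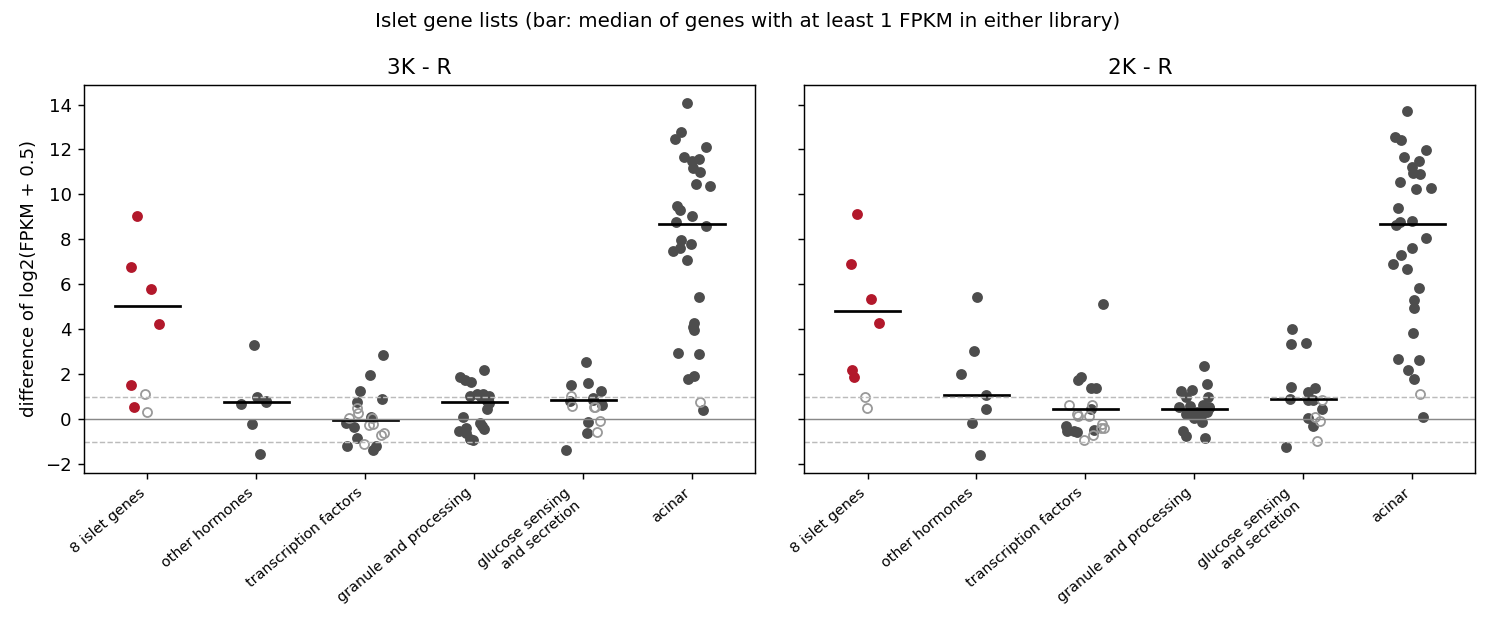
Difference of log2(FPKM + 0.5) for 3K against R and for 2K against R, with 1 point per gene of the 8 islet genes, 4 further islet lists and the acinar list; open points are genes under 1 FPKM in both libraries, bars are medians of the filled points and dashed lines mark a 2-fold difference. The acinar list has medians of 8.70 in both, while the medians of the 4 further lists lie between -0.03 and 1.06.

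The genes whose levels ran most like the mean of the 8 were found by the root mean square difference between centred log2(FPKM + 0.5) profiles over the 9 libraries, among 21243 genes with at least 1 FPKM in any. All 9 libraries enter each profile, so the measure mostly reflects 3K and 2K. Of the 10 nearest, 6 were miRNA or snoRNA genes with transcripts of 121 to 140 bases, namely Gm22569 (distance 0.12), Mir466i (0.14), Gm24429 (0.14), Gm25588 (0.26), Gm44324 (0.27) and Mir8118 (0.28), all listed at 0 in the other 7. The level of Gm22569 in 3K was 0.877 times that in 2K, as were those of Mir466i and Gm24429. The ratio was 1.75 for Gm25588 and Gm44324 and 0.438 for Mir8118. Ratios that recur in such steps point to very few fragments per gene, so nothing is read from these 6. The remaining 4 were 1810009J06Rik (0.16), Amy2a5 (0.16), a pancreatic amylase, Fbxo31 (0.20), a ubiquitin ligase subunit, and Klk1b3 (0.21), a kallikrein.

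Fbxo31 was at 35.4 FPKM in 3K and 62.1 FPKM in 2K, and between 2.91 FPKM (RR) and 5.08 FPKM (3KR) elsewhere. Among the 8 genes themselves, distances to their own mean ran from 0.37 (Iapp) to 2.33 (Ins2). Nearest to Ins2 alone were Gp2 (0.28), a zymogen granule membrane protein, Ctrl (0.33), a chymotrypsin-like protease, and Cpb1 (0.47), a carboxypeptidase, all 3 on the acinar list.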

How the data were processed

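Total RNA of mouse intestinal tract was depleted of ribosomal RNA and made into stranded libraries, per the labels' protocols. HISAT2 (no version stated), Cuffdiff 2.2.1 and GRCm38 are named in the submitters' processing notes; the sources used here do not give the annotation or whether counting used strand. The deposited values are FPKM, scaled by the authors, per the file headers, with 1 library in each of 9 conditions, so no test was made.

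Differences are of log2(FPKM + 0.5), and genes that reached 1 FPKM in at least 1 of the 2 libraries were called at 2-fold, in 15 comparisons. Fragments per library were estimated from the step between low FPKM values of single-transcript genes of 2000 to 5000 bases in GENCODE M21, less a fitted length offset. The estimate covers no counting error. It is of the library size used in the authors' scaling, which need not equal the fragments mapped. Values of very short RNAs depend on such length corrections.

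The members and the 12 gene lists were chosen with earlier results of these data known. From the other islet lists, the text names genes with at least 5 FPKM in 3K or 2K and at least 4-fold apart from R on the log2(FPKM + 0.5) scale, up to 6 a list, and Gcg, Pyy, Insl5, Ucn3, Mafa, Onecut2, Hnf4a, Pcsk1, Pcsk2 and Prlr were singled out after their values were seen. Profile neighbours were the 10 nearest to the mean and the 3 nearest to Ins2. Promoters are from RefSeq; 5 of 8 genes matched. Python 3.11.15, pandas 2.3.3, numpy 2.4.6, matplotlib 3.10.9 and biopython 1.88 were used. The call rule was tested on simulated data. Pseudocounts, floors and scalings were varied.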

Additional observations from a re-analysis of the deposited data

How the results depend on the processing

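No paired analysis was possible because each condition has 1 library, and for the same reason no library could be left out. Of 326 recomputed counts and ratios 294 stayed within 1.5 times the reported value. A count that stayed at 0 is included in the 294. Many counts of the 8 genes are 0 because most of these genes are near 0 outside 3K and 2K. The share is therefore no measure of robustness. The counts of the 8 islet genes called higher in 3K and in 2K against R stayed within 1.5 times under every alternative tried. They did change within that limit. With a floor of 5 FPKM, G6pc2, at 1.10 FPKM in 3K and 2.05 FPKM in 2K, was no longer tested, nor was Abcc8, at 3.70 FPKM in 2K. These contrasts were in view when the genes were chosen, so nothing is read from the stability. A floor of 5 FPKM took the single calls on Ppy and Abcc8 to 0, in 3KR against RR, R against C, RR against C and 3K against 2K, because fewer genes are tested, and a pseudocount of 1 took that in R against C to 0. With a pseudocount of 1, 3K had 1 other hormone, 4 granule genes and 2 secretion genes higher than R, and 2K had 3 granule genes higher. With a pseudocount of 0.1, 1 granule gene was lower in 3K and 1 in 2K, beside 3006 of all 18873 genes in 3K and 3196 of 19035 in 2K. With a floor of 5 FPKM, 3K had 0 other hormones lower, 1 factor, 4 granule genes and 0 secretion genes higher, and 2K had 0 other hormones lower, 3 granule genes and 3 secretion genes higher. Median-of-ratios scaling left 1 other hormone higher in 3K, as did scaling to equal summed FPKM (TPM) and scaling to a sum without organ lists and small RNAs. TPM scaling gave 5 factors and 2 granule genes lower in 3K, and 2 factors, 2 granule genes and 2 secretion genes lower in 2K. Over all genes it gave 3623 of 20848 lower in 3K and 4731 of 20781 in 2K. The sum without organ lists and small RNAs gave 1 granule gene lower in 3K and 1 in 2K. Over all genes that sum gave 2918 of 19248 lower in 3K and 3648 of 19217 in 2K. Beyond those that follow from scaling or floor, the cause was not tested. Without Ins1 and Ins2, the islet genes were 0.108% of the acinar sum in 3K and 0.112% in 2K, and with Ctrb1 left out of that sum all 8 were 1.41% in 3K and 1.501% in 2K. Of single-gene differences, G6pc2 in 3K against R fell below 2-fold with a pseudocount of 1, at 0.99 on the log2 scale. Slc30a8, under the floor in every comparison, moved under 1 with that pseudocount, to 0.68 in 3K and 0.59 in 2K. Among protein-coding genes alone the nearest profile was 1810009J06Rik at 0.16. Levels under about 1 FPKM rest on few fragments.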

Other observations

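Hormone and marker genes of the gut's own endocrine cells, most of which the text above does not describe, did not move as one in the libraries with insulin transcripts. Of this list, 3 of 15 genes at 1 FPKM or more were called higher and 2 lower in 3K against R (median log2 difference -0.18), and 7 of 16 higher and 2 lower in 2K (median 0.48). Over all genes, 11.6% were called higher and 13.4% lower in 3K, and 14.7% higher and 14.1% lower in 2K. Gcg, Sst, Pyy, Ghrl, Chga, Chgb and Neurod1 are also on the islet lists. Of these, Ghrl was called higher in 3K, and Sst, Ghrl and Chga in 2K. Nts, neurotensin, a peptide of the distal small intestine, was at 2.00 FPKM in 3K and 0.299 FPKM in 2K, against 35.4 FPKM in R. Cck, cholecystokinin, a hormone of the proximal gut that drives enzyme release from acinar cells, was at 54.6 FPKM in 3K and 25.8 FPKM in 2K, against 7.07 FPKM in R, and was also at 33.0 FPKM in 1K. Sct, on the duodenal list like Cck, was at 6.23 FPKM in 3K and 24.1 FPKM in 2K, against 33.7 FPKM in R. The distal gut hormone Insl5 was at 2.255 FPKM in 3K and 4.12 FPKM in 2K, against 0.128 FPKM in R. Sct was called lower in 3K, and Insl5 higher in 3K and 2K.

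The 10 profiles nearest to the mean of the 8 islet genes were also taken among protein-coding genes alone. This restriction was chosen after seeing the data. Cckar, the receptor for cholecystokinin, was at rank 7 and Npy at rank 10. The others were the amylases Amy2a5 and Amy2a1, the kallikreins Klk1b3, Klk1b11 and Klk1b5, and 1810009J06Rik, Fbxo31 and Gm2663. Cckar was at 15.3 FPKM in 3K and 7.98 FPKM in 2K, and between 0.105 FPKM (1K) and 0.338 FPKM (3KR) in the other 7 libraries. Npy was the only gene of the 4 further islet lists among those 10.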
